A study of Mus musculus with 6 samples.

Results

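The 10 genes described here encode an epithelial machinery for moving chloride and bicarbonate: Cftr, Slc26a3, Slc26a4, Slc26a6, Slc26a9, Slc12a2, Slc4a4, Slc4a7, Slc9a2 and Car2. They were chosen by symbol among the 37060 genes of the deposited table, and all 10 were found and tested. The libraries came from uteri on gestation day 5, of 3 mutant mice with the genotype SRC-2d/d and 3 control mice with the genotype SRC-2f/f. SRC-2, encoded by Ncoa2, is a coactivator of steroid receptors, and the series asked which genes it controls around embryo implantation. The labels give both genotypes as alleles of this one gene and name no treatment. No source used here gives the agent that deletes the gene, the cells in which it acts, or the strain and age of the mice.

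Chloride and bicarbonate secretion sets the volume and pH of the fluid that lines an epithelium. CFTR is an anion channel of the apical membrane that is activated through cAMP, and exchangers of the SLC26 family beside it trade chloride for bicarbonate. At the basolateral membrane the cotransporter encoded by Slc12a2 loads chloride and those encoded by Slc4a4 and Slc4a7 load bicarbonate, which carbonic anhydrases also make inside the cell from CO2. In the rodent uterus estrogen is known to favour fluid secretion, and progesterone favours absorption, which lets the lumen close around the embryo.

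In the mutant uteri 3 of the 10 genes rose, Cftr, Slc26a9 and Car2, with mean normalized counts 32.3, 27.9 and 27.1 times those of the controls. A further 2 fell, Slc9a2 to 6.2% of the control level and Slc4a4 to 57.6% of it. The remaining 5 were not called (limma, Benjamini-Hochberg adjusted p under 0.05). Over all 36154 genes tested, 5.34% were called higher and 4.08% lower in mutants. All 3 mutant values lay above all 3 control values for 4 members, the 3 higher ones and Slc26a4, against 13.4% of all genes, and below them for Slc9a2 and Slc4a4, against 12.1% of all genes. The median log2 difference of the 10 genes was 0.47, and that of all genes was -0.01. With 3 and 3 mice, such a separation always puts an exact two-sided permutation test at its lower bound, p = 0.1. For these 6 genes that test therefore adds nothing to the separation.

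Levels are given as normalized counts, which are reads per gene divided by a size factor for the library. Log2 differences are mutant minus control on the log2(normalized count + 1) scale, with their standard error (SE). A library held between 129905950 and 195782326 reads on genes. Ncoa2 itself, the targeted gene, averaged 7232 ± 501 in mutants and 13598 ± 779 in controls (SD, n = 3 each), and every mutant lay below every control. Its call (limma log2 difference -0.91, adjusted p = 0.00953) was lost without control 2 (-0.94, adjusted p = 0.0583) and without control 3 (-0.86, adjusted p = 0.0585). Markers of epithelium, stroma and smooth muscle were present in all 6 libraries.

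RefSeq gave promoter windows, from 250 bases before to 50 bases after a transcript start, for 7 of the 10 genes, with 8 windows in all on GRCm38.p6. Slc12a2, Slc9a2 and Car2 had no window and are left out of the motif counts for the members. The windows of Cftr and Slc26a9, which rose together, of Slc26a4, whose mutant values were all above the controls, and of Slc4a4, which fell and has a pair of starts, are shown here 5′ to 3′ on the strand of the gene. Capitals mark AGGTCA, an estrogen response element half-site, or its reverse complement, and TATAAA, the TATA box, or its reverse complement.
Cftr, chr6:18170437-18170736, plus strand: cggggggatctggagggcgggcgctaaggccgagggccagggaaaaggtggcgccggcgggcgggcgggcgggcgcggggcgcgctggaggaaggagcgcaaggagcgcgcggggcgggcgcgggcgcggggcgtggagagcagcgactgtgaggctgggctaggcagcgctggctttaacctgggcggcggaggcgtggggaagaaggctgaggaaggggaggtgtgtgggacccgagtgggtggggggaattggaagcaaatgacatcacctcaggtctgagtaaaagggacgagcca
Slc26a9, chr1:131743772-131744071, plus strand: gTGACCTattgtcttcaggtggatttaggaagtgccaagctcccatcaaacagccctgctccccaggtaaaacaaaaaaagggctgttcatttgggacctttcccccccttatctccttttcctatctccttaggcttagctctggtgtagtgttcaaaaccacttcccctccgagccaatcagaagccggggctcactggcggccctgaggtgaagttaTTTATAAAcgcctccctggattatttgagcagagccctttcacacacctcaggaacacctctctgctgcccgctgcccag
Slc26a4, chr12:31559935-31560234, minus strand: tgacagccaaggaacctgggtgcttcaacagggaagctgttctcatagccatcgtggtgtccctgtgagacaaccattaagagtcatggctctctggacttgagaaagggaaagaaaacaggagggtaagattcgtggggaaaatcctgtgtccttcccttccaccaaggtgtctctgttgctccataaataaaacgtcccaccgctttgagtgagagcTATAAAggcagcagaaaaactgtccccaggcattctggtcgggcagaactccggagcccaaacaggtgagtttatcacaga
Slc4a4 upstream start, chr5:88887010-88887309, plus strand: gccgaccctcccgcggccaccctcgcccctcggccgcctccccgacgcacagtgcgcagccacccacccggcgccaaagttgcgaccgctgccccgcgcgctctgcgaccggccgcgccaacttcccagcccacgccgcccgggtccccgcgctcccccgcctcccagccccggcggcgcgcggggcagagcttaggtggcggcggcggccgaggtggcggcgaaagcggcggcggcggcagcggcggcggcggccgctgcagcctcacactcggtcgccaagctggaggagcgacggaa
Slc4a4 downstream start, chr5:89027716-89028015, plus strand: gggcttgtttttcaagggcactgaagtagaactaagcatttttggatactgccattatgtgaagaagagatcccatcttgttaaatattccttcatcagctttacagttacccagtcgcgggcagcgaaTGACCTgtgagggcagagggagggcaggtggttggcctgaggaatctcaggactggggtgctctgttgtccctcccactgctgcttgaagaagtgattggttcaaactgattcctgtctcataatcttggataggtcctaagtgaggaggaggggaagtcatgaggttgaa

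The window of Cftr was 71.3% G and C with 31 CpG pairs and held neither AGGTCA nor TATAAA. Slc26a9 had 52.0% G and C with 5 CpG pairs, an AGGTCA half-site on the minus strand starting 249 bases before the start site, and overlapping copies of TATAAA on both strands, 30 and 28 bases before it. Slc26a4 was close to Slc26a9 in composition, with 50.0% G and C and 6 CpG pairs, and had TATAAA 31 bases before its start, with no half-site. The upstream window of Slc4a4 was 80.0% G and C and held neither motif, while its downstream window, at 48.3%, had a half-site on the minus strand 121 bases before the start. In all, 4 of the 8 windows held a half-site, those of Slc26a3 and Slc4a7 included, and neither of those genes was called. Among all 32851 RefSeq windows, read on both strands, AGGTCA was in 16.3% and TATAAA in 13.6%, and the median window had 52.7% G and C and 7 CpG pairs. ACANNNTGT, the progesterone and glucocorticoid receptor element, and TGACG, a cAMP response element half-site, were in none of the 8 members' windows and in 6.85% and 20.8% of all windows. CCAAT, the CCAAT box, was in 6 of the 8, those of Cftr, Slc26a3, Slc26a6, Slc26a9, Slc4a7 and the downstream start of Slc4a4, and in 37.4% of all windows. These are exact matches of letters, with near matches not counted, and they are not measured binding. The gene-level values do not say which start was in use.

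Cftr, the apical anion channel, had 7433, 4182 and 13804 normalized counts in mutants 1 to 3, against 267, 308 and 211 in controls 1 to 3. The groups were far apart, and the lowest mutant was well above the highest control. The log2 difference was 4.86 (SE 0.36, limma adjusted p = 1.76e-06), with a 95% interval of 4.08 to 5.64, and the ratio of means was 32.3. Mutant 3 had 3.30 times the count of mutant 2, whereas the controls differed by a factor of at most 1.46. In GENCODE M21 the antisense gene Gm15592 shares 129 exon bases with Cftr on the opposite strand. It had 107, 15 and 153 reads in mutants 1 to 3 and 0 reads in each control (limma adjusted p = 0.000702). With 3 reads per control library as the floor, the mutant mean of Gm15592 was 29.6 times that floor, with mutant 2 well below the other mutants. No source used here says whether the counting kept the strands apart, and Gm15592 came to 0.373% to 1.64% of the Cftr count in the mutants. It was singled out after its values were seen.

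Slc26a9, which encodes an epithelial chloride transporter and channel of the SLC26 family, had 7979, 2596 and 2053 normalized counts in mutants 1 to 3, against 167, 137 and 149 in controls 1 to 3. Again the groups did not overlap, but here mutant 1 was the high one and mutant 3 the lowest. The log2 difference was 4.53 (SE 0.42, limma adjusted p = 1.08e-05). The ratio of means was 27.9, and 15.4 without mutant 1.

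The other 3 SLC26 genes of the set did not pass the test. Slc26a4, which encodes the chloride-bicarbonate exchanger pendrin, had 5715, 684 and 509 normalized counts in mutants 1 to 3, against 218, 325 and 287 in controls 1 to 3. Every mutant was above every control, and 1 animal, mutant 1, stood far above the other mutants, with 11.2 times the count of mutant 3. Its log2 difference of 2.20 (SE 0.66) narrowly missed the threshold (limma adjusted p = 0.0511), with a 95% interval of 0.79 to 3.61. Without mutant 1 the ratio of means was 2.16 instead of 8.32, and the log2 difference was 1.11 (adjusted p = 0.0955). It passed without mutant 2 (2.64, adjusted p = 0.0111) and without mutant 3 (2.85, adjusted p = 0.0204). On the reads recovered from the values, edgeR's quasi-likelihood test called it (3.06, adjusted p = 0.0130), so that 4 of the 10 genes were higher by that test, against 5.44% of all genes.

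Slc26a6, an exchanger of chloride for bicarbonate and other anions, had 1763, 3706 and 686 normalized counts in mutants 1 to 3, against 1590, 773 and 1001 in controls 1 to 3. The groups overlapped, with the highest and the lowest of the 6 values both among the mutants. The log2 difference was 0.62 (SE 0.47, limma adjusted p = 0.497), and its 95% interval of -0.39 to 1.64 leaves room for changes in either direction. The ratio of means, 1.83, was 1.09 without mutant 2. Slc26a3, the chloride-bicarbonate exchanger that dominates in the colon, was close to undetected, with 6, 5 and 0 reads in mutants 1 to 3 and 1, 12 and 6 reads in controls 1 to 3. The groups overlapped, and the controls alone spread 14.6-fold in normalized counts. Between the groups the log2 difference was -0.64, with a wide 95% interval of -2.87 to 1.58 (limma adjusted p = 0.765). A count of 0 allows up to 3 reads, which equal 2.48 normalized counts in mutant 3. Its log2 difference was 0.29 without mutant 3, and its ratio of means, 0.606, was 0.394 without mutant 1 and 1.15 without control 2.

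The loaders of chloride and bicarbonate moved little. Slc12a2, the sodium-potassium-chloride cotransporter NKCC1, had 43141, 43421 and 41807 normalized counts in mutants 1 to 3, against 47011, 36304 and 38127 in controls 1 to 3. All mutant values lay within the control range. The log2 difference was 0.09 (SE 0.21, limma adjusted p = 0.848), and the 95% interval of -0.36 to 0.54 does not reach a doubling. Slc4a7, an electroneutral sodium-bicarbonate cotransporter, had 10624, 9458 and 12914 in mutants 1 to 3, against 9761, 8323 and 8406 in controls 1 to 3. Its groups overlapped at a single pair, mutant 2 and control 1, and the log2 difference of 0.31 was not called (SE 0.21, 95% interval -0.14 to 0.76, limma adjusted p = 0.436).

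Slc4a4, the electrogenic sodium-bicarbonate cotransporter NBCe1, was the one loader that fell. It had 6679, 7377 and 5044 normalized counts in mutants 1 to 3, against 12014, 10124 and 11042 in controls 1 to 3. The groups were apart, with a log2 difference of -0.81 (SE 0.22, limma adjusted p = 0.0302, 95% interval -1.28 to -0.35). The call rested on the full set of libraries: it was lost without mutant 1 (-0.85, adjusted p = 0.0671), mutant 3 (-0.65, 0.0994), control 1 (-0.75, 0.0978), control 2 (-0.87, 0.104) and control 3 (-0.81, 0.120), and also when eBayes was run without trend (0.193). By edgeR it was called (adjusted p = 0.0280).

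Car2, the cytosolic carbonic anhydrase that turns CO2 and water into bicarbonate and a proton, was the most abundant of the members in mutants. It had 129826, 96767 and 183064 normalized counts in mutants 1 to 3, against 3670, 5246 and 6221 in controls 1 to 3. The mutant values were wide apart from the control values and less scattered than those of Cftr. The log2 difference was 4.74 (SE 0.27, limma adjusted p = 2.45e-07), with a 95% interval of 4.16 to 5.32, and the ratio of means was 27.1. Car2 is also made by red cells. Of the 6 red cell genes 0 were called by limma (0 also had an unadjusted p under 0.05), and their summed normalized counts were 212175, 128004 and 52333 in mutants 1 to 3, against 69875, 96153 and 73832 in controls 1 to 3. Mutants 1 and 2 were thus above every control in red cell genes, and mutant 3, with the most Car2, was below every control. The part of red cells in the Car2 result was not tested.

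Slc9a2, which encodes the sodium-proton exchanger NHE2 of the apical membrane, went the other way. It had 37.5, 124 and 86.0 normalized counts in mutants 1 to 3, against 1481, 1500 and 1010 in controls 1 to 3. Each control had more than 8 times the count of any mutant. The log2 difference was -4.13 (SE 0.42, limma adjusted p = 2.97e-05, 95% interval -5.04 to -3.22), and the control mean was 16.1 times the mutant mean.

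**Figure D1:**
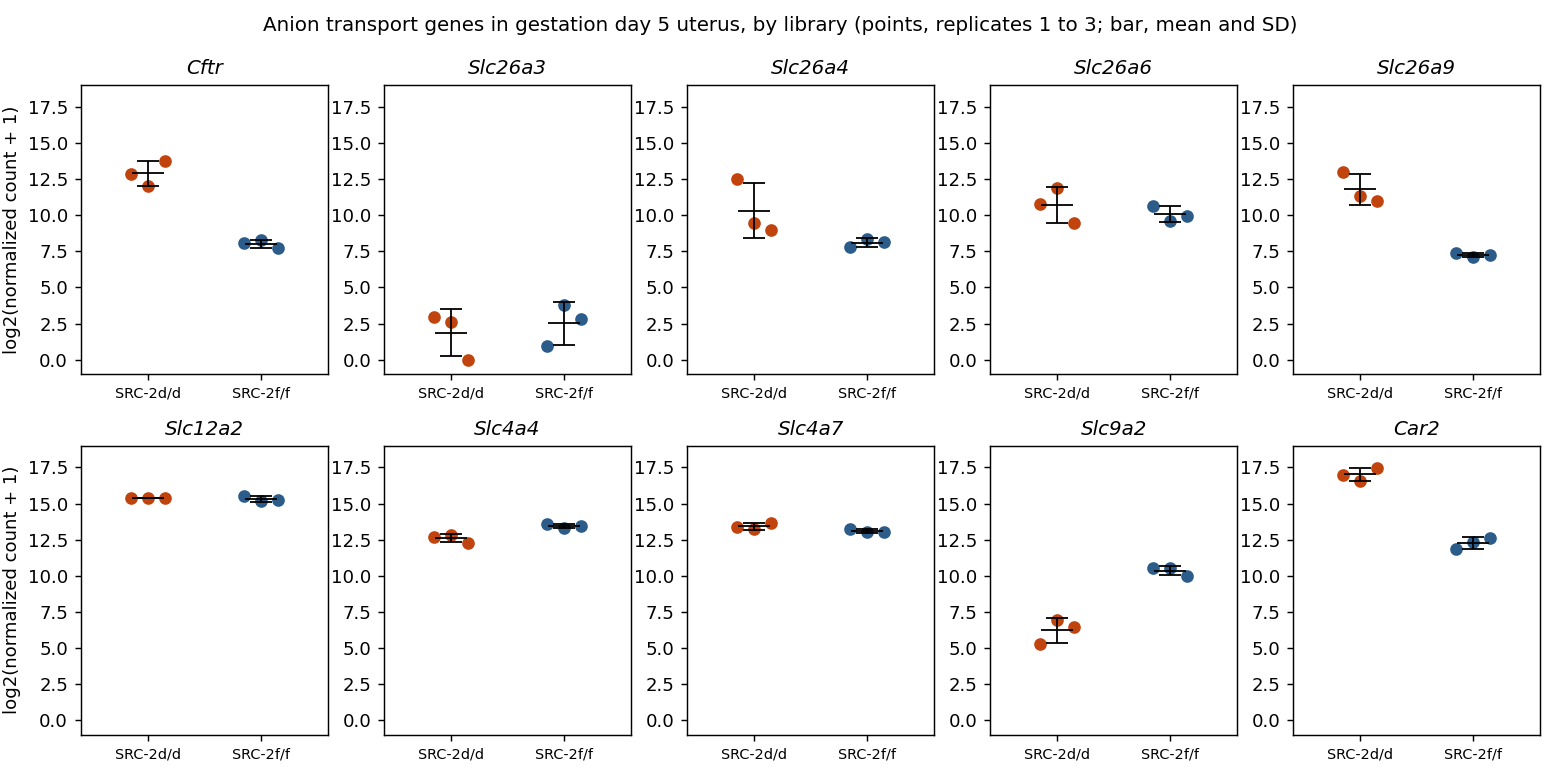
The level of each of the 10 genes is plotted by library on the log2(normalized count + 1) scale, with SRC-2d/d (left) and SRC-2f/f (right), points for replicates 1 to 3 from left to right and bars for the mean and SD. Cftr, Slc26a9 and Car2 are higher in mutants by 4.86, 4.53 and 4.74 log2 units, Slc9a2 is lower by 4.13 (log2 difference -4.13), and Slc12a2 lies at one level throughout.

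Since normalized counts grow with the length of a transcript, levels of different genes were compared per kilobase of exon in GENCODE M21, which may not be the annotation the authors used. On this scale of normalized counts per kilobase, Car2 led in mutants with 56380 ± 17977, followed by Slc12a2 with 3918 ± 79.0 and Cftr with 1091 ± 630 (SD, n = 3). The values of Cftr, Slc26a9 (805 ± 627), Slc26a4 (741 ± 951), Slc4a7 (723 ± 116), Slc4a4 (589 ± 111) and Slc26a6 (379 ± 283) overlapped between each neighbour in that order, so the mutants do not rank these 6 genes. Slc9a2 (11.8 ± 6.19) and Slc26a3 (0.629 ± 0.559) came last, each apart from the gene above it. In controls the order was Slc12a2 (3707 ± 525), Car2 (2083 ± 532), Slc4a4 (1023 ± 87.4) and Slc4a7 (581 ± 53.1), each apart from the next, and then Slc26a6 (207 ± 77.9) and Slc9a2 (191 ± 39.7), which overlapped. Slc26a4 (89.0 ± 17.5) came next, and Cftr (33.7 ± 6.28) and Slc26a9 (28.9 ± 2.90) stood near the bottom, overlapping each other but apart from Slc26a3 (1.04 ± 0.941).

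The members did not share one ranking of the mutant animals. Mutant 1 was highest for Slc26a3, Slc26a4 and Slc26a9, mutant 2 for Slc26a6, Slc12a2, Slc4a4 and Slc9a2, and mutant 3 for Cftr, Slc4a7 and Car2. On the log2 scale the span from lowest to highest was wider in mutants for 9 of the 10 members. It was 3.49 for Slc26a4 in mutants and 0.57 in controls, and 1.96 against 0.28 for Slc26a9. For Slc26a3, with a count of 0 in mutant 3, the spans were nearly equal (2.97 and 2.88). The exception was Slc12a2, with a span of 0.05 in mutants and 0.37 in controls. The share of all genes with a wider span in mutants was not computed, so the count is not read as a trait of the members.

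The genes most like Cftr over the 6 libraries, by the root mean square difference of log2 values after each gene's own mean was subtracted, were Tspan1 (0.18), Gm44094 (0.24), Itgb6 (0.25), Plch2 (0.26) and Gm43057 (0.27), out of 17978 genes with a mean of at least 100. Tspan1 encodes a tetraspanin, Itgb6 an integrin chain of epithelia and Plch2 a phospholipase C. Tspan1 had 34324, 19960 and 54119 normalized counts in mutants 1 to 3, against 1240, 1435 and 1259 in controls 1 to 3, the same ranking of the mutants as Cftr. Around Slc26a6 the nearest were Acod1 (0.22), Zfp469 (0.29), Slc12a3 (0.33), Gm9195 (0.33) and Scd3 (0.37). Acod1, which encodes an itaconate-forming enzyme, had 26245, 45136 and 13199 in mutants 1 to 3, against 29336, 12038 and 15607 in controls 1 to 3. Like Slc26a6 it was highest in mutant 2 and in control 1. These genes were picked for their likeness and carry no test of it.

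Of 91 further genes in 8 lists of the same transport system, 10 rose and 5 fell in mutants, with a median log2 difference of 0.03. The share called higher or lower can be read against 5.34% and 4.08% over all genes. Carbonic anhydrases held 2 of the higher genes among 15, and 1 lower. Car12, a membrane-bound enzyme with its active site outside the cell, had 156703, 118569 and 170459 normalized counts in mutants 1 to 3, against 23701, 11793 and 16752 in controls 1 to 3 (log2 difference 3.13, SE 0.27, limma adjusted p = 6.29e-06). The groups did not overlap, and the mutant mean was 8.53 times the control mean. Car5b, a mitochondrial enzyme, had 10929, 4407 and 16840 in mutants and 1020, 989 and 843 in controls 1 to 3 (3.30, limma adjusted p = 6.95e-05). Car6, a secreted enzyme, had 0 reads in every mutant and 6, 5 and 9 reads in controls 1 to 3. With 3 reads per mutant library as the floor, Car6 had a control mean 2.20 times that floor. Its call (limma adjusted p = 0.0423) was lost on removal of any library (adjusted p of 0.0627 to 0.182), and by edgeR (0.126).

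Potassium channels, which recycle potassium and keep the driving force for anion exit, had 3 higher and 1 lower of 8 genes, at a median of 1.00. That median is the midpoint of Kcne3 (0.54) and Kcnj16 (1.45), neither of them called. Kcnj16 had only 9, 0 and 8 reads in mutants 1 to 3 and 0, 1 and 1 in controls 1 to 3. Kcnma1 (-0.80) and Kcne2 (-1.24) lay below 0 and were not called. Kcne1, a small accessory subunit of the channel encoded by Kcnq1, had 344, 129 and 562 normalized counts in mutants 1 to 3, against 13.2, 1.07 and 4.07 in controls 1 to 3 (log2 difference 5.79, SE 0.77, limma adjusted p = 0.000275). Kcnq1 itself had 5219, 2507 and 6250 in mutants 1 to 3, against 1412, 1582 and 1349 in controls 1 to 3 (1.59, limma adjusted p = 0.00443), a call lost without control 3 (1.54, adjusted p = 0.0565). Kcnn4, a calcium-activated channel, averaged 2446 ± 1890 in mutants and 570 ± 69.6 in controls (SD, n = 3; log2 difference 1.79, limma adjusted p = 0.0205). That call was kept, among the removals of 1 library, only without mutant 2. It was lost without mutant 1 (1.81), mutant 3 (1.19) and controls 1 to 3 (1.80, 1.70 and 1.88), at adjusted p of 0.0503 to 0.116. Kcnj15, an inward rectifier, fell (-2.36, limma adjusted p = 0.00892), but not without control 2 (-2.34, adjusted p = 0.0645) or control 3 (-2.15, adjusted p = 0.0821).

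Other chloride channels gave 3 higher and 1 lower of 22. Ano9, an anoctamin, had 1331, 1198 and 2570 normalized counts in mutants 1 to 3, against 355, 302 and 221 in controls 1 to 3 (log2 difference 2.47, SE 0.34, limma adjusted p = 0.000326). Lrrc8d and Lrrc8e, subunits of the volume-regulated anion channel, had log2 differences of 1.46 (limma adjusted p = 0.00142) and 0.89 (0.0162). The call of Lrrc8e was lost without control 2 (0.86, adjusted p = 0.109) and control 3 (0.84, adjusted p = 0.0890). Ano1, the calcium-activated chloride channel, fell to 11594 ± 4878 in mutants, against 27459 ± 8914 in controls (SD, n = 3; -1.28, limma adjusted p = 0.0196). Its call was lost without mutant 1 (-1.28, adjusted p = 0.0541), mutant 3 (-0.96, 0.0882), control 2 (-1.25, 0.0964) and control 3 (-1.05, 0.161).

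Among 15 partners of CFTR and kinases of transport, 2 rose and 0 fell by limma, and 2 lower genes had an unadjusted p under 0.05. Slc9a3r1, the PDZ scaffold NHERF1 that anchors CFTR, averaged 21146 ± 4884 in mutants and 8265 ± 654 in controls, and Ezr, the ezrin that links that scaffold to actin, 74014 ± 22597 in mutants and 28604 ± 1290 in controls (SD, n = 3). Their log2 differences were 1.33 (limma adjusted p = 0.00188) and 1.33 (0.00319). SLC4 transporters had 1 gene of 8 lower, Slc4a9 (-2.64, limma adjusted p = 0.0038, lost without control 2 at -2.28 and 0.0555), and SLC12 cotransporters 1 of 8 lower, Slc12a8 (-1.59, limma adjusted p = 0.0176). The call of Slc12a8 was lost without mutant 1 (-1.50, adjusted p = 0.0512), control 2 (-1.61, 0.0941) and control 3 (-1.32, 0.132). The 7 further SLC26 genes and the 8 further SLC9 exchangers had 0 limma calls each, although 2 SLC26 genes and 1 SLC9 gene had an unadjusted p under 0.05.

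**Figure D2:**
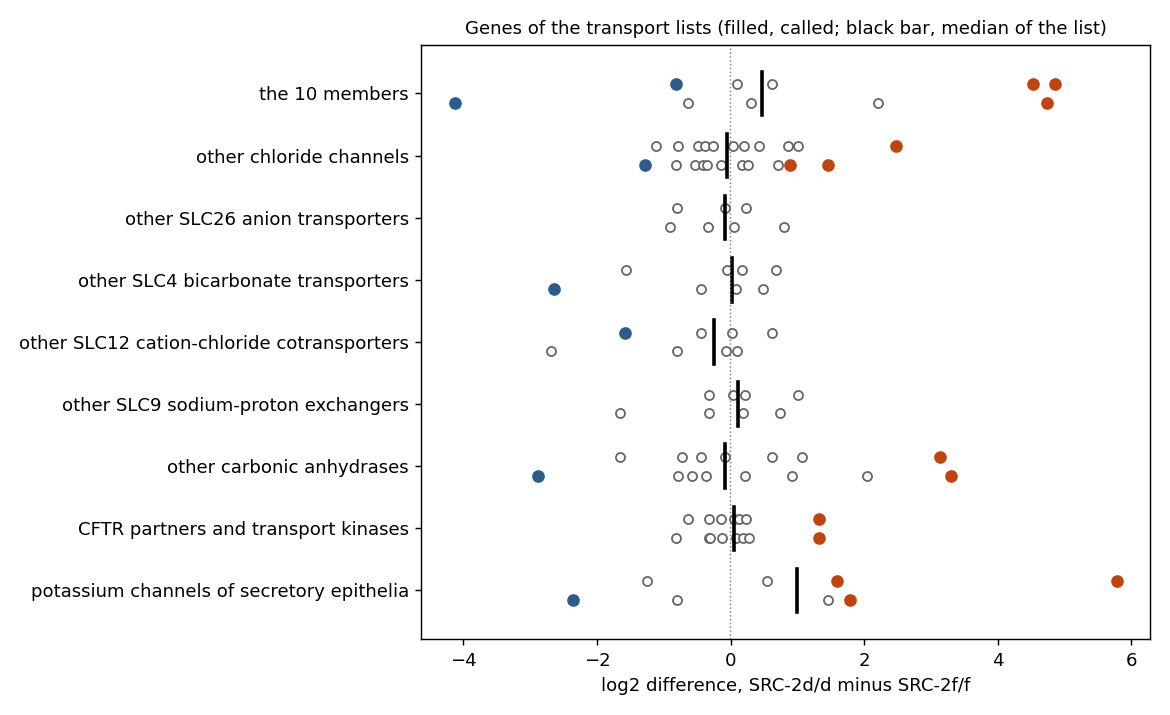
Each point is a gene of the 10 members or of the 8 transport lists, placed by its log2 difference (SRC-2d/d minus SRC-2f/f), with filled points called by limma and a black bar at the median of the list. Of the 91 list genes 10 are called higher and 5 lower, and among the SLC26 list (7 genes) and the SLC9 list (8 genes) there is no filled point.

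These are whole uteri, in which a larger share of cells of a type and more RNA per cell cannot be told apart. Of the 10 general epithelial markers 9 rose and 0 fell (limma), and their summed normalized count was 377991 to 669107 in mutants and 125743 to 143714 in controls. Epcam, Cdh1 and Krt8 had log2 differences of 2.06, 1.88 and 2.40. Stromal markers were lower in 5 of 8 cases, with sums of 926101 to 1840810 in mutants and 1804320 to 2471040 in controls, and endothelial markers in 4 of 5. Gland markers fell in 5 of 7 cases, with sums of 1773 to 2529 in mutants and 120091 to 310764 in controls. The largest control means in that sum were those of Prss29 (127464), Prss28 (71172) and Spink1 (18121). Foxa2 (305 in mutants against 607 in controls) and Cxcl15 (400 against 241) were not called. The median log2 differences of the stromal, endothelial and smooth muscle lists were below 0 too (-1.23, -0.95 and -0.40), as were the differences of Slc9a2 and Slc4a4. The part of these shifts in the results for the 10 genes was not tested.

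Set against the mean log2 level of the 10 epithelial markers in the same library, Cftr, Slc26a9 and Car2 were still higher in every mutant than in every control. The difference of Cftr relative to these markers was 3.04 log2 units, that of Slc26a9 was 2.70 and that of Car2 was 2.92. The epithelial mean itself differed by 1.82. Slc26a4 overlapped between the groups on this relative scale (0.38, exact permutation p = 0.9). Slc12a2 (-1.73), Slc4a7 (-1.52), Slc4a4 (-2.64) and Slc9a2 (-5.96) were lower relative to the markers in every mutant than in every control. With that separation the exact permutation p of each is 0.1, the smallest possible. As measured, Slc12a2 (0.09) and Slc4a7 (0.31) were not called, and their relative values mainly carry the rise of the markers. That rise also enters the relative values of Slc4a4 and Slc9a2, whose differences as measured were -0.81 and -4.13. The 10 markers themselves had log2 differences from -0.07 to 3.29. On the relative scale Slc26a6 and Slc26a3 overlapped.

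**Figure D3:**
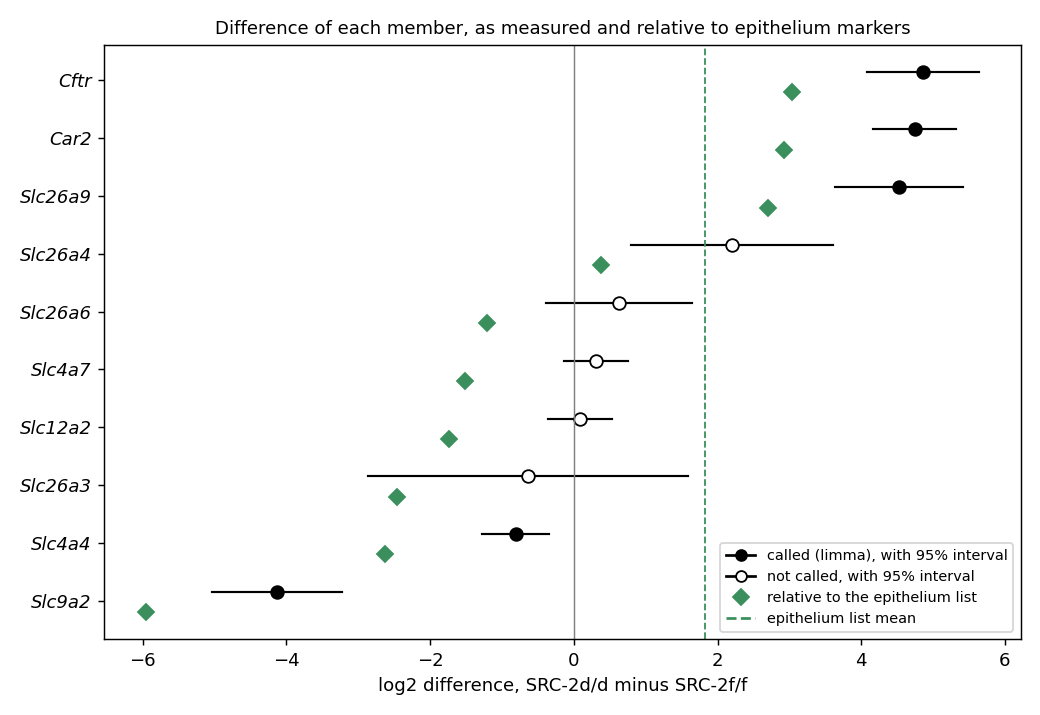
Circles give the log2 difference (SRC-2d/d minus SRC-2f/f) of each of the 10 genes with its 95% interval from limma, filled where called, and green diamonds the same difference relative to the mean of 10 epithelial markers. The dashed line marks the difference of that marker mean, 1.82, and Cftr, Car2, Slc26a9 and Slc26a4 lie to its right as measured, these 4 alone having relative values above 0.

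Marker lists of other cell types varied by library as well. Adipocyte genes, a sign of fat left on the tissue, summed to 642 to 3992 normalized counts in mutants and 207 to 4837 in controls, and 0 of 5 were called by limma (0 also had an unadjusted p under 0.05). Leukocyte genes had 0 limma calls of 6, mesothelial genes 0 of 3 and multiciliated cell genes 0 of 4, with 1, 1 and 0 of them at an unadjusted p under 0.05. Of 4 embryo genes 1, Elf5, was called, with means of 531 in mutants and 45.2 in controls. Pou5f1 and Nanog had lower means in mutants (3.79 against 11.6 and 8.24 against 29.6). Cdx2 had a higher mean there (13.7 against 3.33), and these other embryo genes were not called. Smooth muscle genes had 1 lower call of 7. Mutant 2 was the mutant nearest to the controls for the epithelial, stromal, smooth muscle and endothelial lists, and it was the lowest mutant for Cftr and Car2 and the highest for Slc9a2 and Slc4a4, so that it stood nearest to the controls for those 4 genes too. For Slc26a9 and Slc26a4 the mutant nearest to the controls was mutant 3.

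**Figure D4:**
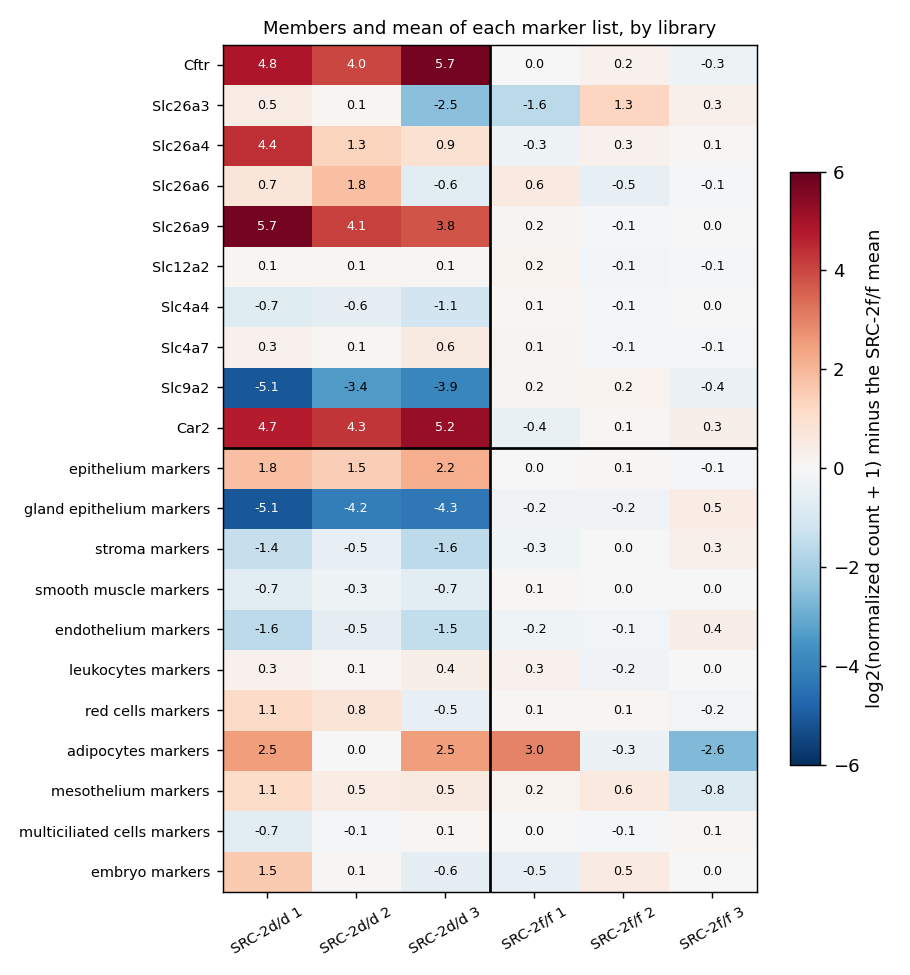
Each cell gives the log2(normalized count + 1) of a member, or the mean over a marker list, minus the mean of the 3 SRC-2f/f libraries, with SRC-2d/d libraries to the left and SRC-2f/f libraries to the right. Cftr, Slc26a9 and Car2 are raised in all 3 mutants together with the epithelium markers, and Slc26a4 is raised mainly in mutant 1 (4.38). Slc9a2, Slc4a4 and the gland, stroma, smooth muscle and endothelium markers are reduced in all 3 mutants.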

How the data were processed

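Gene expression was measured by RNA sequencing of total RNA from whole uterus, after library preparation with the TruSeq Stranded mRNA kit, as the labels' protocols state. Per the submitters' processing notes the tools included HISAT2, HTSeq and DESeq. Their versions and roles, the genome build, the annotation and the strand setting of the counting were not stated there (not given in the sources used here). The authors deposited 1 table, titled FPKM, whose values are a signal: read counts over a size factor for each library. Dividing each library by its smallest value above 0 gave whole reads for 100% of values, within 1e-06 of a read, and the size factors were 0.880 to 1.21. They are called normalized counts and are not corrected for gene length. Recovered reads summed to 129905950 to 195782326 per library.

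Mutants were compared with controls with limma 3.58.1 (R 4.3.3; lmFit and eBayes, trend allowed). The values were log2(normalized count + 1), and the 36154 genes whose mean reached 0.5 were tested, with Benjamini-Hochberg adjustment over all of them. This scale understates changes of genes with low counts. edgeR 4.0.16 and DESeq2 1.42.0 were run on the recovered reads. Single values were also tested with exact permutation tests. A run of the procedure on simulated data gave both groups the same spread and changed only genes with a mean of at least 100. That run does not cover changes in genes with low counts or groups of unequal spread. The 95% intervals from limma are for the mean difference between the groups, and single mice can lie outside them.

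The members, the gene lists and the tests were chosen with earlier results of these data known. The genes named are the 10 members, Ncoa2, Epcam, Cdh1, Krt8, up to 4 called genes per transport list and direction, and the 5 genes most like Cftr and like Slc26a6. Gm15592, Elf5 and the other embryo, gland and uncalled potassium channel genes named were added after their values were seen. Exon lengths and overlaps are from GENCODE M21, and promoter windows from RefSeq. Floors and reads below 10 carry counting error only.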

Additional observations from a re-analysis of the deposited data

How the results depend on the processing

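Under 19 alternatives, 3 members were called higher in 15 settings and 4 in the others. Cftr, Slc26a9, Car2 and Slc9a2 kept their direction and their call under all 19 (log2 differences of 4.42 to 5.28, 3.93 to 4.91, 4.51 to 4.97 and -4.50 to -3.65), the weakest adjusted p being 0.0188. Of the 2 lower members 1 was left with eBayes without trend, and without single replicates the number was 1 to 2, Slc4a4 being the one lost. Slc26a4 was called with array weights (2.34, adjusted p = 0.0116), by edgeR and without mutants 2 or 3, its adjusted p being 0.0111 to 0.310 over all alternatives; DESeq2 gave it no adjusted p. The log2 difference of Slc26a3 ran from -1.44 to 0.29 without single replicates, with the sign turned without mutant 3. Genes called over the whole table, 1929 higher and 1476 lower, were 683 and 315 with eBayes without trend, and 2500 lower with array weights. Without single replicates they were 1013 to 2598 higher and 315 to 2813 lower. On the scale relative to epithelial markers, 3 members were above in each of 8 alternatives and 4 to 5 below, and Slc26a4 ranged from -0.72 to 1.21. The replicate number as a block gave 2104 higher and 1708 lower genes. Among the genes named, apart from those added later, it changed 1 call, that of Car6 (adjusted p = 0.0640). Deviations of same-numbered mice correlated at 0.38, 0.01 and 0.03, so the numbers were not treated as pairs. Of 15 called transport genes, 7 (Slc9a3r1, Ezr, Ano9, Lrrc8d, Car12, Car5b and Kcne1) kept the call without each library in turn. With eBayes without trend the calls of Slc9a3r1, Ezr and Lrrc8d were lost too (adjusted p of 0.0744 to 0.0937). The cause of these changes was not tested. Slc26a3, with 11 reads in mutants and 19 in controls, is the member with the fewest reads.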
